A study of Mus musculus with 6 samples.

Results

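The genes described here are 10 members of the VEGF and Tie signalling axis of blood vessels, found by symbol among the 31053 gene identifiers of the deposited tables. They were chosen by name from what they are known to do, by a rule that uses no measured value, though with earlier results of these data known. They are the VEGF receptor genes Kdr, Flt1 and Flt4, the neuropilin co-receptor genes Nrp1 and Nrp2, the angiopoietin receptor genes Tek and Tie1, and the ligand genes Vegfa, Angpt1 and Angpt2. All 10 passed the filter on low counts, as did 14912 genes in all. Their mRNA was counted in cells of E17 fetal lung from C57BL6 mice, with no genotype or number of pooled animals given, that were frozen, thawed and grown on thin, diluted Matrigel (a basement membrane extract) in HSPC media. That medium held mTPO, IL6, SCF, FGF, VEGF and Flt3, so every library comes from cells given VEGF, and no culture without it was compared. Suspension cells (3 libraries) floated in the medium on days 4, 5 and 6 of culture, and adherent cells (3 libraries, the same days) were detached with accutase before a sort that enriched live, VE-cadherin positive cells. There was 1 library for each fraction on each day, and whether the days were separate cultures is not stated, so each p-value covers the spread among these libraries alone, part of which may be technical.

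Each value is a whole-library sum of reads per gene, and CPM is a count scaled to counts per 1e+06 with TMM factors. The libraries held between 36451255 and 57784974 sense-strand gene counts, and 3 counts in a library, the upper limit that a count of 0 allows, corresponded to 0.0594 to 0.0755 CPM. Such limits and the counting intervals below cover counting error only. In such sums, fewer cells of a type and less RNA per cell cannot be told apart. Reads came from the 3' ends of transcripts and were summed per gene, so soluble and membrane forms of a receptor and splice forms of a ligand were not separated. Cdh5, the gene of the VE-cadherin used for the sort, had 6124, 8979 and 3390 counts in the adherent libraries of days 4, 5 and 6 and 7, 16 and 6 in suspension. The sort selected for the protein of this gene, so its high adherent counts check the label and nothing further. Attachment, detachment with accutase and the sort all belong to the adherent fraction, so their parts in any difference cannot be told apart. Pecam1 (CD31) was at 81.9, 156 and 53.6 CPM in the adherent libraries. Fibroblast, epithelial, pericyte and macrophage markers were also counted in every adherent library. On days 4, 5 and 6 endothelial markers summed to 1198, 2301 and 917 CPM there and macrophage markers to 2673, 3447 and 6971. Pericyte sums were 2714, 538 and 745 CPM, fibroblast sums 1470, 2292 and 2261 and epithelial sums 1459, 366 and 943. Sums over different genes do not give shares of cells.

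Endothelial cells receive VEGF through receptor tyrosine kinases. KDR is the main signalling receptor for VEGF-A, FLT1 binds VEGF-A tightly and its soluble form acts as a decoy, and FLT4 binds VEGF-C and VEGF-D and is best known from lymphatic vessels. Neuropilins have no kinase of their own and bring VEGF or semaphorins to partner receptors. TEK (also called TIE2) is held active by ANGPT1, made mainly by mural and mesenchymal cells, while ANGPT2, made by activated endothelium, often opposes it, and TIE1 is a related receptor that modulates TEK. In the fetal lung this axis drives growth of the capillary network.

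Since the 5 receptor kinase genes shared a pattern across the libraries while Nrp2 did not, the 250 bases before the RefSeq start of these 6 genes are shown. They were thus picked after their values were seen. Vegfa and Angpt2 had the same direction between fractions and the same day order in adherent cells, and Nrp1, like Nrp2, did not. Whether the sequences bear on the levels was not tested. Sequences are from the table of build GRCm38.p6 (the assembly of mm10), which held 8 of the 10 genes (not Angpt1 and Angpt2). Each reads 5′ to 3′ on the gene's strand, and capitals mark the core of ETS factor sites, GGAA or its reverse complement TTCC.
Kdr, chr5:75978456-75978705, minus strand: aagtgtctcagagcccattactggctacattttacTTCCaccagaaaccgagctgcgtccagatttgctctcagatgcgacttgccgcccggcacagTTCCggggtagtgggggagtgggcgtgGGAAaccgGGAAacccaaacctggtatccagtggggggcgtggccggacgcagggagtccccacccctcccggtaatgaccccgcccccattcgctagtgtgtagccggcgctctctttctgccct
Flt1, chr5:147726012-147726261, minus strand: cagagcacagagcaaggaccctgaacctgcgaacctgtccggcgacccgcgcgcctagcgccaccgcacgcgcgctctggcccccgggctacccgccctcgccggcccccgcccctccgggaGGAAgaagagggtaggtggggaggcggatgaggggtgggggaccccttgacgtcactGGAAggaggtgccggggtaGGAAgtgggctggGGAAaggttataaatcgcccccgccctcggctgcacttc
Flt4, chr11:49609429-49609678, plus strand: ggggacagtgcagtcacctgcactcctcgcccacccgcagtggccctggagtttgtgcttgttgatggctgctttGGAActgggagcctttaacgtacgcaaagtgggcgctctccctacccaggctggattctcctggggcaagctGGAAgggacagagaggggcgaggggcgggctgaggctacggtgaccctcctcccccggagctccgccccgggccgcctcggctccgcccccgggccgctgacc
Tek, chr4:94739039-94739288, plus strand: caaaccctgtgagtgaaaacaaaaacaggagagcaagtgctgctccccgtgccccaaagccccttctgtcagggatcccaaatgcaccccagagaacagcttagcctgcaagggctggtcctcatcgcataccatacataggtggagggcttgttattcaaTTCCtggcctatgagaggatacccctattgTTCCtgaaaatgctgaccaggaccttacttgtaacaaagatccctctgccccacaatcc
Tie1, chr4:118489850-118490099, minus strand: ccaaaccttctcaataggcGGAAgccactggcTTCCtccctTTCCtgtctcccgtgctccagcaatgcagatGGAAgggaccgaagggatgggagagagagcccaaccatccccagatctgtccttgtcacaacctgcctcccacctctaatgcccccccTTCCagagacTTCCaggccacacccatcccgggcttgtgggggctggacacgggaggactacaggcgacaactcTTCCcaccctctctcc
Nrp2, chr1:62703067-62703316, plus strand: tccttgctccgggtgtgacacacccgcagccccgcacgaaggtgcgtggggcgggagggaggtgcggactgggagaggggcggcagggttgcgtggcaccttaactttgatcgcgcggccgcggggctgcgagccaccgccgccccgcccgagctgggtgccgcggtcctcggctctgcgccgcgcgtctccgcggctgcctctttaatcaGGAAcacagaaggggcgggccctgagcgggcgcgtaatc
Of all 32851 RefSeq windows of this length, 93.4% held such a core, with a median of 3. Tie1 had 7, Kdr and Flt1 4 each, Flt4 and Tek 2 each and Nrp2 1. Nrp1 had 4, and the 2 start windows of Vegfa had 6 and 2. GC boxes (GGGCGG or CCGCCC), found in 32.7% of windows, were absent from the windows of Tek and Tie1 and numbered 5 in that of Nrp2. The core of hypoxia-inducible factor sites (ACGTG or CACGT, 16.6% of windows) was in the second Vegfa window and in no other window of the members. These matches describe letters and not bound sites, and GENCODE M21 has transcripts of Flt4, Tie1, Nrp1, Nrp2 and Kdr, and of Vegfa for its second window, that start within or before the window.

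The contrast of the fractions asked where the receptors and ligands of this axis were counted, in floating or in attached, VE-cadherin sorted cells. Of the 10 members 8 were lower and 1, Nrp2, was higher in suspension at an adjusted p below 0.05 (edgeR quasi-likelihood, Benjamini-Hochberg over all genes). Among the 8, Tek and Tie1 passed the filter on low counts through their adherent libraries alone, so the filter fixed their direction. The same holds for other genes named below that had almost no counts in suspension. By this rule 29.7% of all tested genes were lower, 27.1% higher and 56.8% called either way, so a call alone does not set the members apart. The members' median log2 ratio of suspension over adherent was -3.22, and that of all tested genes was -0.00247. The 3 suspension values all lay to the same side of the adherent ones for 9 members, 8 of them lower and 1 higher, as for 67.8% of all genes (34.4% lower, 33.4% higher). The largest ratios were those of Tie1, Tek, Flt1 and Flt4, while Nrp1 did not pass the test.

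**Figure D1:**
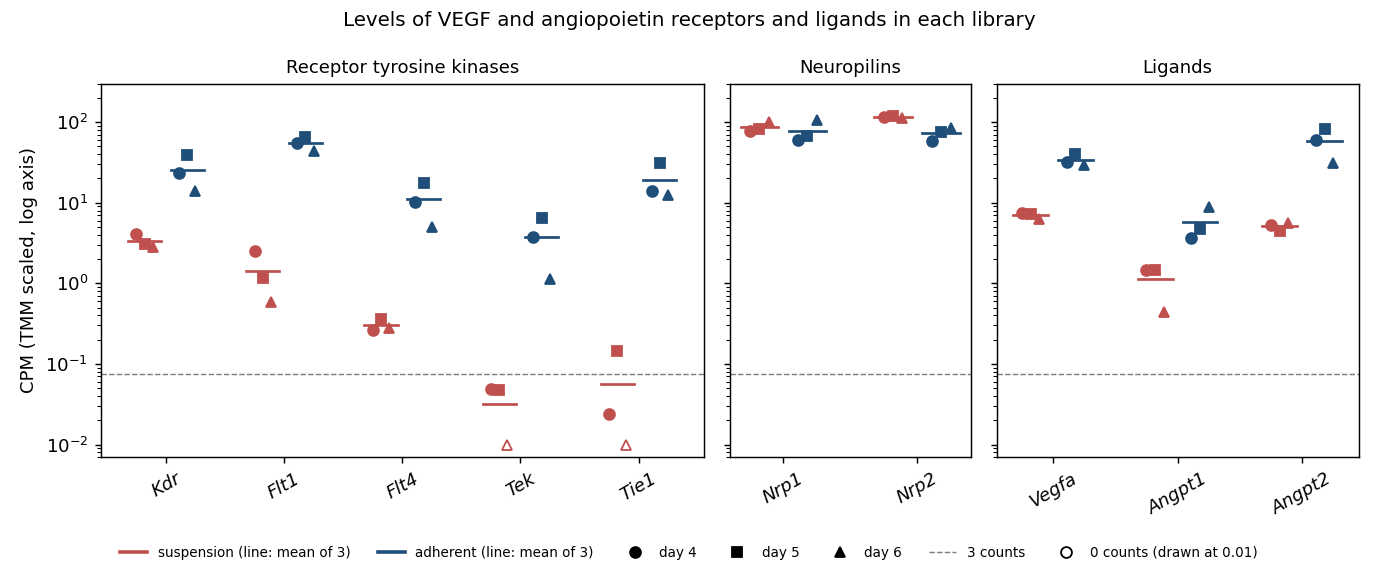
Level of each member in every library in CPM on a log axis, by fraction (colour) and day (symbol), with lines for the mean of 3 libraries, a dashed line at 3 counts and open symbols for 0 counts. All adherent points of the receptor kinases and the ligands lie above all suspension points, whereas the neuropilins are at similar heights in both fractions.

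Among the VEGF receptors, Flt1 (ENSMUSG00000029648, mm10 chromosome 5, 147561604 to 147726011, minus strand) was at 55.2, 66.0 and 44.0 CPM in adherent cells on days 4, 5 and 6. In suspension it was at 2.54, 1.17 and 0.594 CPM on the same days. Every adherent library was thus far above every suspension library, with a log2 ratio of -5.28 ± 0.54 (approximate SE, adjusted p = 0.000717 by edgeR). Kdr (ENSMUSG00000062960, chromosome 5, 75932827 to 75978458, minus strand) was at 23.5, 39.1 and 13.9 CPM in adherent cells and at 4.04, 3.05 and 2.83 in suspension. Its groups did not overlap either, but its ratio of -2.95 ± 0.40 (adjusted p = 0.00163) was the smallest of the 5 receptor kinases. That difference between receptors was not tested. The count of Flt1 for each count of Kdr was 2.35, 1.69 and 3.16 in adherent cells and 0.629, 0.383 and 0.210 in suspension. Such a ratio depends on how well each gene is counted, so only its change between libraries is read: it was lower in all 3 suspension libraries.

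Flt4 (ENSMUSG00000020357, chromosome 11, 49609263 to 49652739, plus strand) was at 10.3, 17.7 and 5.05 CPM in adherent cells, highest on day 5 and lowest on day 6. In suspension it held at 0.266, 0.357 and 0.277 CPM, from 11, 15 and 14 counts. The log2 ratio was -5.19 ± 0.55 (adjusted p = 0.000780 by edgeR). Flt4 also stood out for reads on its antisense strand, which made up 18.6% of its sense and antisense counts in the adherent libraries together. Over all genes that share was between 6.24% and 6.65% in these libraries, and for Kdr and Flt1 it was 1.06% and 2.72%. No other gene of the tables overlaps Flt4 on either strand in GENCODE M21, so the origin of these reads was not tested.

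The Tie receptors had the largest differences. Tie1 (ENSMUSG00000033191, chromosome 4, 118471191 to 118490061, minus strand) had 609, 1228 and 536 counts in adherent cells and 1, 6 and 0 in suspension. In CPM that is 14.0, 30.9 and 12.5 against 0.0242, 0.143 and 0, so that 2 of the 3 suspension values lie under the level of 3 counts. Pooled over days, adherent cells had 360 times the level, with a 95% counting interval from 174 to 896. Tek (ENSMUSG00000006386, chromosome 4, 94739289 to 94874976, plus strand) had 164, 254 and 49 counts in adherent cells and 2, 2 and 0 in suspension. Its pooled ratio was 124 for adherent over suspension, with an interval from 48.1 to 457. Fitted log2 ratios were -8.42 ± 0.83 for Tie1 and -6.83 ± 1.0 for Tek (adjusted p = 0.000672 and 0.00209 by edgeR). Both genes passed the filter through their adherent libraries alone, so their direction was fixed beforehand and these p-values add no support to it. The 15 endothelial markers outside the list had the same direction: 14 of 15 were lower in suspension, and their sum was 917 to 2301 CPM in adherent cells and 16.4 to 24.5 in suspension. They include Cdh5, and the sort for its protein enriched endothelial cells, so their direction is no independent check. Emcn, Robo4 and Sox17 had no count in suspension on days 4 and 5, Gpihbp1 none on days 5 and 6 and Cldn5 none on day 6. How far the content of endothelial cells accounts for the members' differences was not tested.

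**Figure D2:**
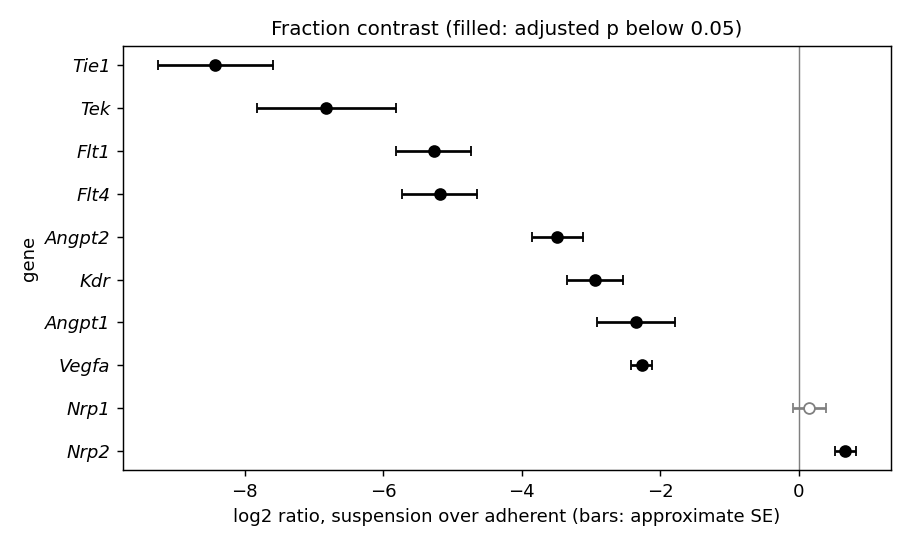
Log2 ratio of suspension over adherent libraries for each member, with bars for approximate standard errors and filled points for adjusted p below 0.05. The points run from -8.42 for Tie1 to 0.67 for Nrp2, and Nrp1 at 0.15 is the open point.

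The neuropilins were counted at high levels in both fractions. Nrp2 (ENSMUSG00000025969, chromosome 1, 62703285 to 62818695, plus strand) was at 115, 121 and 112 CPM in suspension and at 58.6, 74.6 and 85.3 in adherent cells. It was the member that was higher in suspension, by a ratio of 1.59 and without overlap of the libraries (log2 0.67 ± 0.15, adjusted p = 0.00909 by edgeR). In a test against a 2-fold difference it did not pass (adjusted p = 1), whereas 7 members passed as lower, against 8.77% of genes higher and 16.4% lower by that test. Nrp1 (ENSMUSG00000025810, chromosome 8, 128358604 to 128503363, plus strand) was at 77.4, 81.2 and 101 CPM in suspension and at 59.9, 66.6 and 107 in adherent cells. Its libraries overlapped, since the adherent library of day 6 was the highest of all 6. The log2 ratio was 0.15 ± 0.24 (adjusted p = 0.622), but it was 0.46 with an adjusted p of 0.0448 when that library was left out. Macrophage markers, which mark cells also known to carry neuropilins, summed to 17253 to 19017 CPM in suspension and 2673 to 6971 in adherent cells, with 7 of 10 higher in suspension and none at 0 in any library. Their part in the neuropilin levels was not tested.

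Among the ligands, Vegfa (ENSMUSG00000023951, chromosome 17, 46016993 to 46032369, minus strand) was at 32.2, 39.9 and 29.4 CPM in adherent cells and 7.46, 7.31 and 6.30 in suspension. Its ratio changed little between days, with 4.32, 5.45 and 4.67 times the suspension level in adherent cells on days 4, 5 and 6. The fitted value was -2.27 ± 0.15 log2 (adjusted p = 0.000372 by edgeR). Angpt2 (ENSMUSG00000031465, chromosome 8, 18690263 to 18741562, minus strand) was at 59.4, 82.1 and 31.3 CPM in adherent cells and 5.30, 4.45 and 5.64 in suspension (log2 -3.49 ± 0.37, adjusted p = 0.000789). It overlaps Mcph1, which lies on the opposite strand. Antisense reads were 24.2% of its sense and antisense counts in suspension and 3.10% in adherent cells, and whether reads of Mcph1 add to its suspension counts was not tested. Angpt1 (ENSMUSG00000022309, chromosome 15, 42424723 to 42676977, minus strand) was at 3.69, 4.66 and 8.78 CPM in adherent cells and 1.45, 1.48 and 0.436 in suspension. Its log2 ratio of -2.35 ± 0.56 passed (adjusted p = 0.0122 by edgeR), though not in the test against a 2-fold difference (adjusted p = 0.0509). Pericyte and fibroblast markers, which mark cells known to make ANGPT1, were also lower in suspension, 8 of 9 and 7 of 7. Their sums were 538 to 2714 and 1470 to 2292 CPM in adherent cells and 7.90 to 103 and 17.4 to 64.6 in suspension, with the pericyte marker Rgs5 at 0 in suspension on day 6, and their part in the Angpt1 difference was not tested.

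The course over days in the adherent cells divided the members into those highest on day 5 and those highest on day 6. Kdr, Flt1, Flt4, Tek, Tie1 and Angpt2 were each highest on day 5 and lowest on day 6. Vegfa had the same order, making 7 of 10 members, against 11.7% of all tested genes. The level of day 5 was 5.60 times that of day 6 for Tek, 3.51 times for Flt4, 2.81 for Kdr, 2.62 for Angpt2, 2.48 for Tie1 and 1.5 for Flt1, values from 1 library a day that carry no test. Of the 15 endothelial markers 13 had this order too, and their sum was 1198, 2301 and 917 CPM on days 4, 5 and 6. The other 3 members, the neuropilins and Angpt1, were higher on each later day, as were 33.5% of all tested genes. Angpt1 on day 6 was 2.38 times its level of day 4, Nrp1 1.79 and Nrp2 1.45 times.

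**Figure D3:**
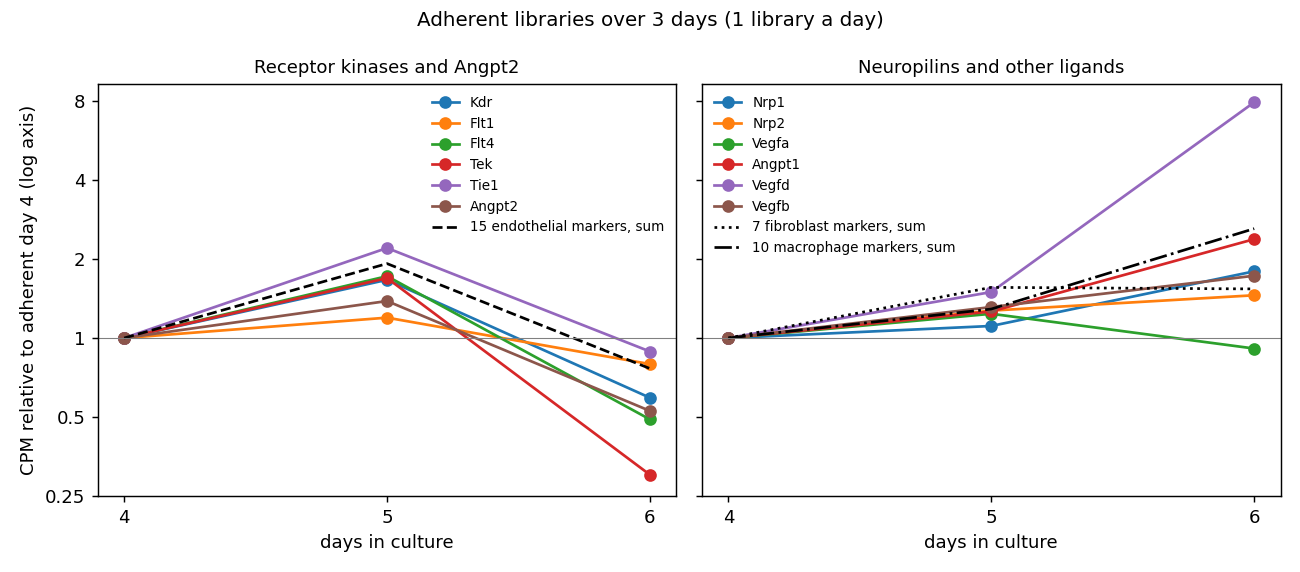
Level in the adherent libraries of days 4, 5 and 6 relative to day 4, on a log axis, for the receptor kinases and Angpt2 (left) and for the neuropilins and other ligands (right), with black lines for summed markers. The lines on the left peak on day 5 and end below 1, whereas Angpt1, Nrp1, Nrp2, Vegfb and Vegfd on the right end above 1.

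In a fit of a slope per day for each fraction, Nrp1 rose in adherent cells by 0.42 ± 0.09 log2 a day (adjusted p = 0.0421 by edgeR). With 1 library a day, the error of this and every other slope here is the departure from a straight line. It does not measure a spread between replicates of a day. It was the single call among the members, where 7.75% of all genes rose, 3.52% fell and 11.3% were called either way. Leaving out 1 library ended the call in 5 of 6 cases: adjusted p was 0.115, 0.118 and 0.114 without suspension days 4, 5 and 6, and 0.0639 and 0.571 without adherent days 4 and 6. Nrp2 had a slope of 0.27 ± 0.06 (adjusted p = 0.0515), and macrophage markers rose in the same libraries, 6 of 10 by this test, with sums of 2673, 3447 and 6971 CPM. Their part in these slopes was not tested. No member fell by the straight-line fit, which cannot follow a peak on day 5. Unadjusted p was below 0.05 for 3 members, Nrp1, Nrp2 and Angpt1. Without the adherent library of day 4 Kdr, Flt4 and Angpt2 fell, where 122 of 15309 genes were called falling. Without that of day 5 Kdr and Angpt2 fell, where 999 of 15268 genes did.

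The ratio of Angpt2 to Angpt1 counts in adherent cells was 16.1, 17.6 and 3.57 on days 4, 5 and 6, with 95% counting intervals of 13.7 to 19.0, 15.2 to 20.6 and 3.18 to 4.01. It was thus lower on day 6 beyond counting error, though with 1 library a day the spread between cultures is unknown. In suspension the ratio was 3.65, 3.02 and 13.0. The ratio of Tie1 to Tek in adherent cells was 3.71, 4.83 and 10.9, and the intervals of day 6 (8.16 to 15) and day 4 (3.12 to 4.44) did not meet.

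In suspension no member passed the test for a change by day. Flt1 went from 2.54 to 0.594 CPM between days 4 and 6, with a slope of -1.05 ± 0.18 log2 a day that did not pass in edgeR (adjusted p = 0.0924) and passed in DESeq2 (adjusted p = 0.000115). Summed marker levels of the same suspension libraries went from 25419 to 77595 CPM for neutrophils, 103 to 7.90 for pericytes, 277 to 46.3 for epithelium, 64.6 to 17.4 for fibroblasts and 24.5 to 16.4 for endothelium between days 4 and 6. Their part in the Flt1 values was not tested. Of the members 2 had an unadjusted p below 0.05 for that slope by edgeR, and 0.496% of all genes were called (0.402% falling, 0.0939% rising). DESeq2 called 1 member and 5.83% of genes. The difference of the slopes between fractions was called for no member either, with 0.516% of all genes called (0.463% more negative and 0.0536% more positive in suspension) and unadjusted p below 0.05 for Flt1, Nrp2 and Angpt1. For Flt1 that difference was -0.89 ± 0.23 (adjusted p = 0.134). It was -0.93 with an adjusted p of 0.0297 in a fit with the collection day as a block, in which 6.28% of genes were called, and DESeq2 also called it (adjusted p = 0.0242, 7.84% of genes called). A slope common to both fractions was called for no member by edgeR, where 2 had an unadjusted p below 0.05 and 0.0134% of genes were called. DESeq2 called Nrp1 alone among the members (adjusted p = 0.0348), with 10.5% of genes called.

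Set against the summed counts of the 15 endothelial markers, Cdh5 of the sort among them, the members separated further. Tie1 kept close to that sum in adherent cells, with 1.17, 1.34 and 1.36 counts for each 100 marker counts on days 4, 5 and 6. Kdr was at 1.96, 1.70 and 1.52, and Tek went from 0.316 and 0.278 to 0.124, where the counting interval of day 6 (0.0920 to 0.164) lay below those of days 4 and 5. Flt1, highest on day 5 in CPM, was lowest on day 5 by this measure, at 4.61, 2.87 and 4.79. Its counting interval of day 5 (2.76 to 2.98) lay below those of days 4 and 6. Vegfa was also lowest on day 5, at 2.69, 1.73 and 3.21. Flt4 was at 0.860, 0.770 and 0.551 and Angpt2 at 4.95, 3.57 and 3.42 in adherent cells. In suspension Kdr had 16.5, 15.7 and 17.2 counts for each 100 marker counts, above its adherent values by more than the counting intervals. Angpt2 had 21.6, 22.9 and 34.3 and Vegfa 30.4, 37.6 and 38.3 in suspension. The sum in suspension is made mostly of Egfl7, Pecam1, Eng and Erg, which held 86.2% to 92.7% of it against 20.6% to 21.7% in adherent cells and which blood cells can also carry. The other 11 markers left 140, 93 and 61 counts in suspension, beside 167, 128 and 143 counts of Kdr. The split was made by which markers fill the suspension sum, so the low counts of these 11 follow from that choice. Which cells carried the Kdr counts of suspension was not tested.

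**Figure D4:**
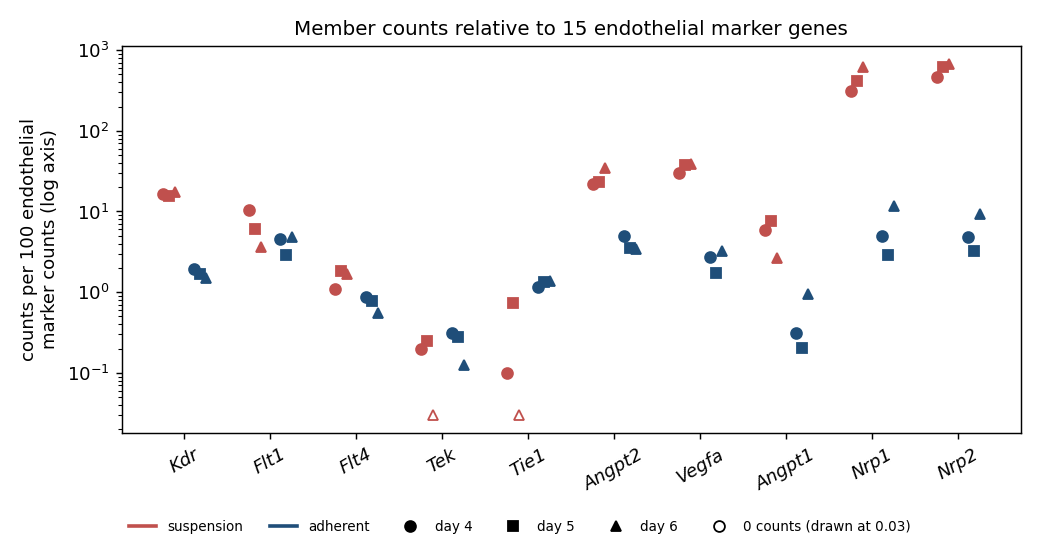
Counts of each member per 100 counts of the 15 endothelial markers (Cdh5 of the sort among them) in every library, on a log axis, by fraction (colour) and day (symbol), with open symbols for 0 counts. Tie1 is lower in suspension and the fractions overlap for Tek and Flt1, whereas all suspension points of Kdr, Flt4, Angpt2, Vegfa, Angpt1 and the neuropilins lie above the adherent ones. The counting intervals of Tie1 on suspension day 5 (0.269 to 1.61) and of Flt4 on suspension day 4 (0.540 to 1.95) cover the adherent points of these genes.

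Of 5 other ligand genes of both families, 4 were lower in suspension, as were 29.7% of all tested genes. Where 10 CPM in 3 libraries were required, which left 8640 genes tested in all, 2 were lower. The median log2 ratio of the 5 was -5.98, or -4.90 with Angpt4 at its bound. Pgf (placental growth factor, a ligand of FLT1) was at 88.8, 216 and 101 CPM in adherent cells and 1.89, 0.643 and 0.812 in suspension. Vegfd, a ligand of FLT4, was at 8.39, 12.6 and 66.3 CPM in adherent cells. It thus rose, by 1.51 ± 0.24 log2 a day (adjusted p = 0.0228 by edgeR). Flt4, at 10.3, 17.7 and 5.05 CPM on these days, had no called slope (-0.50 ± 0.43, adjusted p = 0.481). Fibroblast markers were higher on the later days, with sums of 1470, 2292 and 2261 CPM and 2 of 7 rising by the same test, and their part in the Vegfd rise was not tested. Vegfc, the other FLT4 ligand, held at 12.1, 11.5 and 15.3 CPM in adherent cells and was at 0.678, 0.50 and 0.139 in suspension. Vegfb, a FLT1 ligand, was not called between the fractions (81.3 ± 11.2 CPM in suspension against 77.4 ± 20.9, SD, n = 3, adjusted p = 0.797 by edgeR), but it rose in adherent cells by 0.39 ± 0.07 log2 a day (adjusted p = 0.0277), from 57.5 and 75.4 to 99.2 CPM. These were the 2 called slopes among the 5 genes, all of which had a positive slope there. By this test 7.75% of all tested genes rose. Calls either way numbered 1681, and 288 without the adherent library of day 6. Whether the Vegfd and Vegfb calls hold with a library left out was not examined. Angpt4 had no count in suspension and 55 in the adherent libraries together, at least 6.47-fold higher there against a floor of 3 counts per library.

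**Figure D5:**
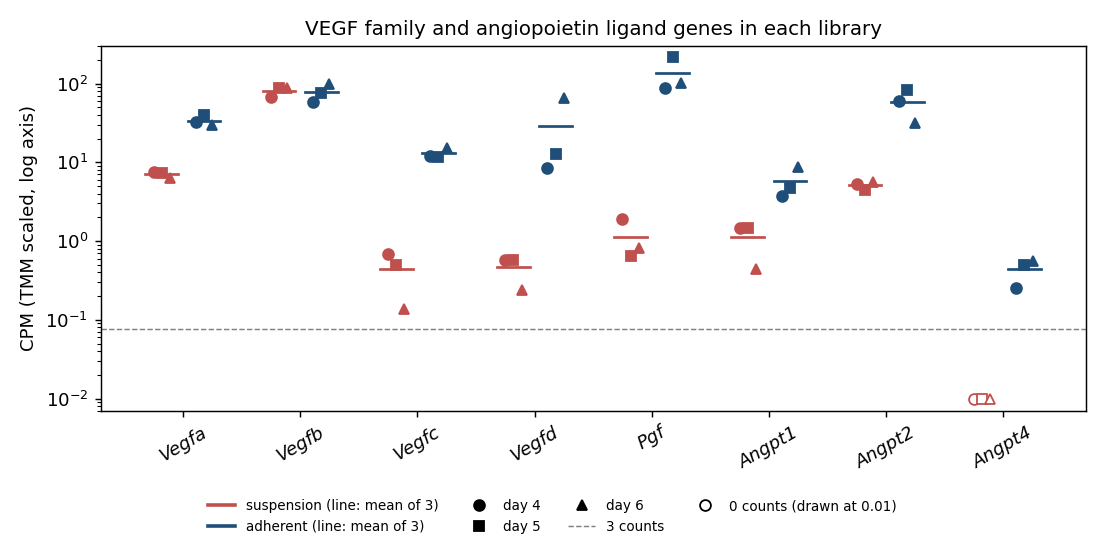
Level of the VEGF family and angiopoietin ligand genes in every library in CPM on a log axis, drawn as for the members. Vegfb is at the same height in both fractions, and the Vegfd triangle of adherent day 6, at 66.3 CPM, stands above those of days 4 and 5.

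Partners of the neuropilins were mostly lower in suspension, where 29.7% of all tested genes were lower and 27.1% higher. Of 13 such partners 10 were lower and 1 higher, with a median log2 ratio of -2.76. Where 10 CPM in 3 libraries were required, which left 8640 genes tested in all, 4 were lower and 1 higher. Plxna1, a plexin that signals for semaphorins, was the higher one (43.0 ± 2.55 against 21.8 ± 2.46 CPM, SD, n = 3, not passing the test against a 2-fold difference), and Plxna2 was lower at -1.65 ± 0.19 log2. Sema3g had 3 counts in suspension in all, and its adherent level was 123 times that (95% counting interval 41.7 to 598), and Sema3d, another semaphorin, was at -5.16 ± 0.82. The adaptor gene Gipc1 did not pass (93.2 ± 6.32 against 102 ± 12.7 CPM, SD, n = 3).

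Genes known to rise when endothelium is given VEGF were lower in suspension in 10 of 13 cases, with none higher and a median of -2.26. The endothelial markers, 14 of 15 lower with a median of -8.12, moved with them. These markers include Cdh5 of the sort, and their part in these differences was not tested. By the same rule 29.7% of all tested genes were lower. Leaving out each library gave 7 to 10 genes of this list lower. Against a 2-fold difference 7 were lower, and 5 where 10 CPM in 3 libraries were required. Dll4, a Notch ligand of tip cells and arteries, had 3 counts in suspension and 1668 in adherent cells, a ratio of 590 (202 to 2865). Apln, the apelin gene, was at 84.4, 86.9 and 35.0 CPM in adherent cells and 2.18, 0.262 and 0.0198 in suspension. The smallest called differences were those of Dusp5 (-1.32 ± 0.40), a phosphatase, and Pdgfb (-1.69 ± 0.51), which recruits pericytes. Plaur, the urokinase receptor gene, did not pass, at 71.8 ± 10.9 against 57.6 ± 25.1 CPM (SD, n = 3).

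Signal transducers of the VEGF receptors went both ways, with 10 of 25 tested genes higher in suspension, 8 lower and a median of 0.23. Of all tested genes 27.1% were higher and 29.7% lower by the same rule, so these calls alone do not set the list apart. Neutrophil markers were 8 of 8 higher in suspension with a median of 6.26, summing to 25419 to 77595 CPM against 225 to 978 in adherent cells with none at 0. The part of these and of the macrophage markers in the genes called higher was not tested. The 8 lower genes included Hspb1, a small heat shock protein (-4.67 ± 0.99), and Nos3, the endothelial nitric oxide synthase (-3.13 ± 0.56). Among the higher ones were Nfatc1, a calcium-dependent transcription factor (1.92 ± 0.23), Prkcb, a protein kinase C (1.83 ± 0.45), and the GTPase gene Cdc42 (739 ± 58 against 509 ± 13.2 CPM, SD, n = 3). With any of the 3 suspension libraries left out 6 were higher, and against a 2-fold difference 1 was higher and 5 lower.

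Of 8 genes of Tie signalling 3 were lower and 2 higher, with a median of -0.43. Among all tested genes 29.7% were lower and 27.1% higher, so these calls alone do not set the list apart. Ptprb, the phosphatase that acts on TEK and VE-cadherin, had 1 count in suspension and 1003 in adherent cells, a ratio of 1065 (191 to 42097). Svep1, a matrix protein that binds TIE1, was lower at -4.99 ± 0.93, and in adherent cells it rose from 10.7 and 23.3 to 101 CPM (adjusted p = 0.0107 for the slope by edgeR). By that slope test 7.75% of all tested genes rose, and fits with a library left out were not examined for Svep1. The adaptor genes Dok2 (1.96 ± 0.50) and Grb2 (1.39 ± 0.19) were higher, although 1 gene of the list was called higher without adherent day 5, and 1 against a 2-fold difference. Of 15 hypoxia genes 5 were higher and 2 lower, with a median of 0.01, against the same shares of all tested genes. Adm, adrenomedullin, was lower at -5.22 ± 0.50 and Ndrg1 at -1.95 ± 0.25, while Epas1 (HIF-2α), Car9 (carbonic anhydrase) and Ldha (lactate dehydrogenase) were higher at 2.12 ± 0.38, 1.64 ± 0.47 and 0.50 ± 0.10. Those higher numbered 2, 3 and 3 without suspension days 4, 5 and 6, 2 without adherent day 5 and 1 against a 2-fold difference. With a minimum of 10 CPM in 3 libraries the balance turned, to 2 higher and 4 lower.

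Genes whose log2(CPM + 1) followed a member most closely over the 6 libraries were listed among 9856 others, as a description in which all points share their libraries and the fraction difference dominates. Flt4 and Angpt2 shared Vwa1 and S1pr1, a sphingosine phosphate receptor gene, among their closest 3 (Pearson's r from 0.9984 to 0.9988), and Angpt2 also had Dll4 (0.9979). Tie1 was followed by Adamts4, Plcg1 and Ldb2 and Kdr by Dock9, B3galt6 and Jup (r from 0.9978 to 0.9994). The closest gene was Dlg5 for Flt1, Piezo2 for Vegfa, Knop1 for Tek, Mccc1 for Angpt1 and Lgals3bp for Nrp2, with r from 0.9967 to 0.9997. Nrp1 had no such close partner, its nearest being Ccdc32 with r = 0.9774.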

How the data were processed

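Per the submitters' processing notes, bcl2fastq, Cell Ranger and STARsolo were used on the mm10 genome, with versions and annotation not given in the sources used here. Whole-number counts of reads per gene were deposited for each 10x 3' v3 library (31053 identifiers, 4 summary lines left out of totals), without cells or molecular identifiers. Counts on the sense strand were analysed. GENCODE M21 (GRCm38) gave symbols and positions for 31011 identifiers.

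Counts were filtered with filterByExpr, scaled by TMM and fitted over 14912 genes with edgeR 4.0.16 (quasi-likelihood, R 4.3.3), adjusted by Benjamini-Hochberg over all genes, threshold 0.05. An approximate standard error was taken as the size of the log2 value over the root of F. The designs were fraction, fraction plus day, and a slope per fraction. Same-day libraries deviated together from their fraction means (r = 0.339, 0.146 and 0.288), so the shared collection day, given by the labels, was tried as a block. Other alternatives were DESeq2 1.42.0, its size factors, either-strand reads, other filters, thinned counts, each library left out and a 2-fold test. Code was tested on simulated data, with dispersions scaled down from the fitted ones. There 11.4% of adherent slopes of 0.5 log2 a day and 77.4% of those of 1 were recovered. For slope differences these shares were 9.59% and 50%. A slope without a call can thus be a real one that was missed.

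The members and lists were chosen with earlier results of these data known. All members were named, and of each further pathway list the called genes at either end of the log2 ratios, 2 at each, and the gene of highest mean CPM. For each member the 3 most alike genes of mean CPM at least 5 were taken.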

Additional observations from a re-analysis of the deposited data

How the results depend on the processing

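Between the fractions, 8 members were lower and Nrp2 was higher with the collection day as a block, also on thinned counts, and with either-strand reads, DESeq2, its size factors or no filter. Where 10 CPM in 3 libraries were required 5 members were lower, since 3 of the 10 were not tested. Against a 2-fold difference 0 were higher and 7 lower. Leaving out each library gave 1 to 2 higher and 8 lower. Nrp1, which was not called, had a ratio of -0.0054 log2 with the 10 CPM filter and between -0.0060 and 0.46 with each library left out.

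For the adherent slope, 2 members rose with either-strand reads, DESeq2, no filter, the 10 CPM filter or thinned counts. With each library left out 0 to 2 rose and 0 to 3 fell. The slopes then ranged from -1.49 to 0.74 for Kdr, -0.59 to 0.26 for Flt1, -1.81 to 0.78 for Flt4, -2.48 to 0.76 for Tek, -1.31 to 1.14 for Tie1, -1.39 to 0.47 for Angpt2 and -0.44 to 0.31 for Vegfa, positive without the adherent library of day 6. That of Angpt1 in suspension ranged from -1.80 to 0.026. DESeq2 called 1 member rising in the common trend. For the slope difference 1 member was more negative in suspension by DESeq2 or with the day as a block, 2 without a filter (Flt1 and Angpt1, where 1006 of 22019 genes were called, against 77 of 14912 with it) and 0 to 1 with each library left out. In suspension 1 member fell by DESeq2 or without a filter, and 0 to 1 with each library left out. In the comparisons fitted with it, the block changed no other member's call. Where no construction is named, the cause was not tested. Depth limits Tek and Tie1, with 4 and 7 counts in suspension.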

Other observations

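Since Flt4 is best known from lymphatic vessels, 5 lymphatic markers were read in the same tables, named here after their values were seen. Lyve1, a hyaluronan receptor also carried by some macrophages, was at 59.4, 74.7 and 29.1 CPM in adherent cells on days 4, 5 and 6, with the day order of Flt4, and at 1.69, 1.67 and 8.18 CPM in suspension. Mmrn1, a multimerin of lymphatic endothelium and platelets, was at 8.19, 12.3 and 1.37 CPM in adherent cells. Both were lower in suspension (adjusted p = 0.00611 and 0.00853 by edgeR). Prox1, the transcription factor that sets lymphatic identity, was at 2.33, 1.69 and 0.629 CPM in adherent cells and 1.99, 1.48 and 0.831 in suspension and did not pass (adjusted p = 0.872). Pdpn did not pass either (adjusted p = 0.0562), and Ccl21a had no count in any of the 6 libraries.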
